A study of Homo sapiens with 10 samples.

Results

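The cells described here are 563 Kuramochi cells collected after 9 days in 10 µM olaparib, of 13800 cells in the deposited matrix, and they were divided by whether a deposited table named for G1 lists them. The table lists 426 of the 563, 226 in pool 1 and 200 in pool 2, and these are called G1-listed cells. The other 137 cells, 74 in pool 1 and 63 in pool 2, are absent from it and are called cycling cells. How the table was drawn up is not given in the sources used here, so cell cycle genes may have chosen its members. Genes on lists of the cell cycle and of histones are therefore described without a test, and tests are given for all other genes. Some of the others are also known from proliferating cells, and the table may have used them too.

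Kuramochi is a cell line from a high-grade serous ovarian carcinoma, labelled epithelial and BRCA2-mutant, and every group in the series carries that genotype. The 10 µM persister cells (T10.P) were exposed to olaparib, an inhibitor of the PARP enzymes, for 9 days, as were the 320 µM persister cells (T320.P) at the higher dose. The 10 µM adapted and 320 µM adapted populations (T10.A and T320.A) are olaparib-resistant populations kept as separate groups by the labels, and the control cells (C) are drug-naive and untreated. All groups come from 1 line, and the cells of all 5 conditions were hashed with antibody tags and loaded together, in 2 pools. The labels do not state whether separate cultures supplied the 2 pools, and the spread behind each p-value may thus be technical.

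PARP inhibitors trap PARP on DNA and leave lesions that cells without working homologous recombination repair poorly, and BRCA2 is a central protein of that repair. Persister cells are the minority that stays alive under a drug that kills or arrests most of a population, and they are usually described as slowly dividing. Cells that enter the cycle switch on E2F targets before S phase and, later, G2 and mitotic genes that the DREAM complex holds silent in quiescence. Ferritin stores iron, and interferon-stimulated genes answer to viral RNA or DNA and to DNA that reaches the cytosol.

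UMI counts were summed per condition, state and pool, which gave 20 sums. The cycling sums of 10 µM persister cells held 812531 and 837302 UMIs, against 2719750 and 2907717 UMIs in G1-listed cells, and the 20 sums ran up to 14850917 UMIs. In a sum, fewer cells with a transcript and fewer copies per cell cannot be told apart, so shares of cells with a UMI are given for some genes. Levels are given as CPM, a gene's UMIs scaled to the size of its sum with TMM library factors, in the order pool 1 and pool 2. At these depths 3 UMIs in a sum are worth 3.14 and 3.03 CPM in cycling cells and 1.03 and 0.956 CPM in G1-listed cells, which is the floor under a value of 0. Median depth per cell was close between the states, at 11916 and 15168 UMIs in cycling cells, against 12216 and 15238.5 UMIs in G1-listed cells. In control cells it was 9917 and 11699 UMIs in cycling cells, against 7161 and 8454.5 UMIs in G1-listed cells. Shallow cells were more frequent in the cycling class, where 28 of 137 cells had under 3000 UMIs (20.4%), against 24 of 426 G1-listed cells (5.63%). Those 28 cells held 2.79% of the cycling UMIs. The 2 pools of 10 µM persister cells differed more than those of other groups, with a chi-square per degree of freedom between pools of 2.80 in cycling cells and 3.51 in G1-listed cells, against 1.71 to 2.59 in the other 8 groups. The spread behind each SE and p-value is shared over all 20 sums. For 10 µM persister cells the SEs and p-values may thus be too small.

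The share of cells outside the G1 list was lower in 10 µM persister than in control cells in both pools. The share was 24.7% in pool 1 (95% exact binomial interval 19.9 to 29.9) and 23.95% in pool 2 (18.9 to 29.6), against 57.7% and 56.5% in control cells. As means the shares were 24.3% ± 0.504 in 10 µM persister cells and 57.1% ± 0.839 in control cells (SD, n = 2 pools each). The 320 µM persister cells had 21.3% and 25.1%, so the ranges of the persister doses overlap. The 10 µM adapted cells had 37.1% and 33.0% and the 320 µM adapted cells 46.1% and 44.9%, which lie above both 10 µM persister pools and below both control pools. An exact permutation test of 2 pools against 2 cannot give a p under 0.3333, so none is given for these shares. The intervals cover counting error alone.

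**Figure D1:**
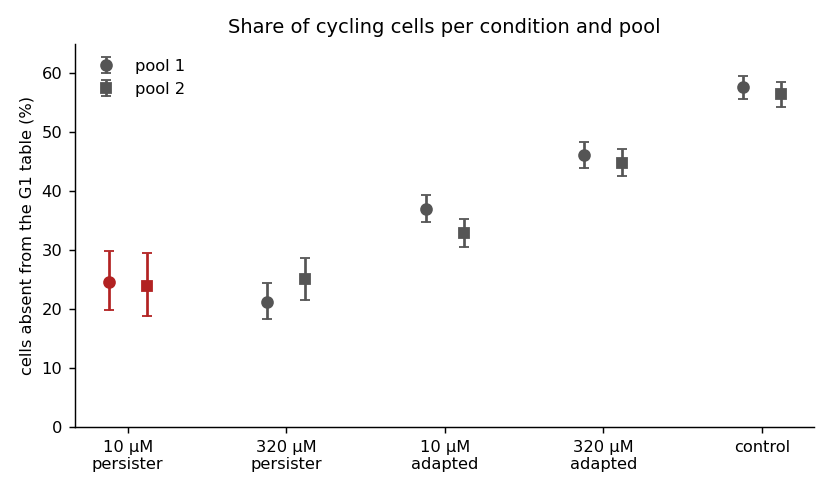
Share of cells absent from the G1 table, in percent, for each condition and pool, with exact 95% binomial intervals. The 10 µM persister pools sit at 24.7% and 23.95%, beside the 320 µM persister pools and below every pool of adapted and control cells.

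The proliferation markers given for these cells were higher in the cycling class. MKI67, the nuclear Ki-67 protein of dividing cells, had 117 and 145 CPM in cycling cells, against 3.77 and 4.46 CPM in G1-listed cells. TOP2A, the topoisomerase that untangles replicated DNA, had 209 and 234 CPM in cycling cells, against 9.25 and 9.88 CPM in G1-listed cells. At least 1 UMI of either gene was found in 105 of 137 cycling cells (76.6%), against 61 of 426 G1-listed cells (14.3%). Among control cells the shares were 80.7% of cycling cells, at a median of 10583 UMIs per cell, and 22.8% of G1-listed cells, at a median of 7740 UMIs. With every cell thinned to 3000 UMIs and shallower cells left out, the shares were 65.1% of 109 cycling cells, against 4.73% of 402 G1-listed cells. In control cells the thinned shares were 61.2% of cycling cells and 8.75% of G1-listed cells. Of the 28 shallow cycling cells, 10 had a UMI of either gene.

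Phase calls from S and G2/M gene scores on the thinned cells gave 47 S, 50 G2/M and 12 G1 calls among the 109 cycling cells. Among the 402 G1-listed cells they gave 3 S, 7 G2/M and 392 G1 calls. Both S and G2/M calls were present among cycling cells, with 43.1% and 45.9% of the calls, against 40.4% and 51.9% in control cycling cells. The G1-listed classes were less alike, since 97.5% of G1-listed 10 µM persister cells were called G1, against 86.2% of G1-listed control cells.

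Cell cycle genes were higher in the cycling class, which is a description and not a test, since these genes may have drawn the list. The log2 difference was above 0 for 42 of 44 S phase genes, 54 of 54 G2/M genes, 45 of 45 genes of mitosis, spindle and kinetochore and 35 of 36 DNA replication genes. The median log2 differences of these lists were 2.54, 2.81, 2.65 and 1.80, beside -0.05 over all 12892 genes tested. The 2 S phase genes below 0, named after their values were seen, were MRPL36 of the mitochondrial ribosome (log2 -0.33) and POLR1B of RNA polymerase I (log2 -0.099). PCNA, the sliding clamp of DNA polymerases, had 137 and 111 CPM in cycling cells, against 27.1 and 21.7 CPM in G1-listed cells. CLSPN, which carries the replication checkpoint signal to CHK1, had 201 and 204 CPM in cycling cells, against 10.96 and 12.1 CPM in G1-listed cells. TK1, the thymidine kinase of S phase, had 157 and 167 CPM in cycling cells, against 21.9 and 17.8 CPM in G1-listed cells. In all 3 genes both cycling sums lay above both G1-listed sums. Here and below, sums that separate or do not overlap are a description and no further support. An exact permutation test of 2 sums against 2 cannot give a p under 0.3333. The share of all genes whose sums separate is not given here.

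Further genes of G2, mitosis and S phase are given next. CCNB1, the cyclin that drives entry into mitosis, had 148 and 130.1 CPM in cycling cells, against 16.8 and 18.8 CPM in G1-listed cells. CENPF, a kinetochore protein, had 497 and 506 CPM in cycling cells, against 30.8 and 30.3 CPM in G1-listed cells. UBE2C, the ubiquitin-conjugating enzyme of the anaphase-promoting complex, had 488 and 458 CPM in cycling cells, against 37.3 and 44.3 CPM in G1-listed cells. Again none of these 3 genes overlapped between the states. HMMR, a spindle-associated hyaluronan receptor, had 137 and 112 CPM in cycling cells, against 4.79 and 4.14 CPM in G1-listed cells. MYBL2, the B-MYB factor of the complex that activates G2 genes, had 111 and 132 CPM in cycling cells, against 6.51 and 6.37 CPM in G1-listed cells. DSCC1, a subunit of a clamp loader needed for sister chromatid cohesion, had 52.3 and 65.5 CPM in cycling cells, against 6.16 and 3.82 CPM in G1-listed cells. These 3 genes were high in both cycling sums and within a few CPM of the floor in the G1-listed ones. CCNE2, a cyclin of S phase entry, had 40 and 31 UMIs in cycling cells, against 4 and 1 UMIs in G1-listed cells, under the floor in pool 2 of the G1-listed cells, and no fold is given. STMN1, which destabilises microtubules, had 691 and 659 CPM in cycling cells, against 96.6 and 106 CPM in G1-listed cells. NASP, a histone chaperone, had 547 and 463 CPM in cycling cells, against 167 and 141 CPM in G1-listed cells. Both cycling sums were above both G1-listed sums for these genes as well.

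Promoters of these lists were read from RefSeq (GRCh38.p14) as 250 bases before to 50 after the gene start, and 3 of them are printed because they carry the letters of the cell cycle elements searched. The CHR, bound by DREAM and B-MYB complexes, was searched as TTTGAA, an E2F element as TTTGGCG or TTTCGCG, and the CCAAT box as CCAAT, each on both strands. TTTGAA stood in 31 of 45 matched G2/M promoters (68.9%) and 21 of 39 of the mitosis list (53.8%), beside 15.4% of 27305 promoters in all. It stood in 1 of 34 S phase promoters (2.94%). An E2F match stood in 13 of 34 S phase promoters (38.2%) and 14 of 32 DNA replication promoters (43.8%), beside 3.22% of all. CCAAT stood in 68.9% of the G2/M promoters and 67.6% of the S phase promoters, beside 35.7% of all. The shown promoters were picked after the values were seen, capitals mark TTTGAA and CCAAT on either strand in MKI67 and HMMR and the E2F match alone in USP1, and a match is a description of letters and not a site. MKI67 lies on the minus strand at chr10:128126374-128126673, with TTTGAA beginning 47 and 29 bases before the start and CCAAT at 98 and 24, where the last 2 share letters. HMMR lies on the plus strand at chr5:163460382-163460681, with TTTGAA at 28 and 22 bases before the start. USP1, a deubiquitinase of the Fanconi pathway that the S phase list holds, lies on the plus strand at chr1:62436145-62436444, with an E2F match at 19. USP1 itself had 208 and 254 CPM in cycling cells, against 74.7 and 62.5 CPM in G1-listed cells.
MKI67: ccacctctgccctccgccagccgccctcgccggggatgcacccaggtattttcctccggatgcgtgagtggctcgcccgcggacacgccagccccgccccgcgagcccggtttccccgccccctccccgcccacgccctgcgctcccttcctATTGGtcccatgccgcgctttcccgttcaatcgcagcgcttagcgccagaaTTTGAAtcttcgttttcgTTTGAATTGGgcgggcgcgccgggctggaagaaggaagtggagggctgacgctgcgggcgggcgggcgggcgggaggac
HMMR: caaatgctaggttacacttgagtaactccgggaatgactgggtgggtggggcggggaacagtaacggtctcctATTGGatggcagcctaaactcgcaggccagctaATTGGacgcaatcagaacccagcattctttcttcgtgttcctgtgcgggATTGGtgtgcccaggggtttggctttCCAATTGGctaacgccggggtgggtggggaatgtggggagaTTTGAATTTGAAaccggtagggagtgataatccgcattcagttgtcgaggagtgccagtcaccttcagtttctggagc
USP1: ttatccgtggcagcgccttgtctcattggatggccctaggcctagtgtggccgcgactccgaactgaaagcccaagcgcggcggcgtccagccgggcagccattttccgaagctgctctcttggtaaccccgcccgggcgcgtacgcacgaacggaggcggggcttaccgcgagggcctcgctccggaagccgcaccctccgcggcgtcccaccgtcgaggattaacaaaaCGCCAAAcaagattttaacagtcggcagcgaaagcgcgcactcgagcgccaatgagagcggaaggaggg

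Histone transcripts did not move as 1 group. Of 16 histone genes the log2 difference was above 0 in 10 and below 0 in 6, with a median log2 difference of 1.18. HIST1H4C, a replicative H4 gene, had 285 and 265 CPM in cycling cells, against 105 and 101 CPM in G1-listed cells. H2AFZ, the variant H2A.Z, had 1564 and 1606 CPM in cycling cells, against 531 and 505 CPM in G1-listed cells. HIST1H2AC ran the other way, with 116 and 82.7 CPM in cycling cells, against 291 and 331 CPM in G1-listed cells. HIST1H1C, a linker histone, also had fewer reads in the cycling state, with 127 and 105 CPM in cycling cells, against 199 and 198 CPM in G1-listed cells. Outside the list, HIST1H2BD had 34.5 and 29.2 CPM in cycling cells, against 100.0 and 104 CPM in G1-listed cells, HIST1H4H had 13.6 and 19.2 CPM in cycling cells, against 53.8 and 65.6 CPM in G1-listed cells, with both cycling sums below both G1-listed sums in each gene. Replicative histone mRNAs mostly lack poly-A tails, which the 3′ chemistry captures, and near-identical copies can share reads, so these values are uncertain.

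Across all genes, 2340 of 12892 passed an adjusted p under 0.05 between cycling and G1-listed 10 µM persister cells (18.2%), of which 1095 were higher (8.49%) and 1245 lower (9.66%). The cell cycle and histone lists, for which a call is no test, supplied 183 of them, so 2157 lay outside. These p-values come from edgeR's quasi-likelihood test over all 20 sums with Benjamini-Hochberg adjustment over all genes tested, and a list's count is read against 8.49% higher and 9.66% lower. Each list's count takes all its tested members, including any that the cell cycle lists also hold. For such members, as in the repair, checkpoint and cyclin lists, a call is no test. The balance of directions depends on scaling, since with library totals alone 1465 genes were higher and 711 lower and the median log2 difference of all genes was 0.07 in place of -0.05. The 4 sums fitted alone called 1577 genes, 939 higher and 638 lower, and 1538 of them were shared. Without cycling replicate 2 of the 10 µM persister cells the count was 1425.

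**Figure D2:**
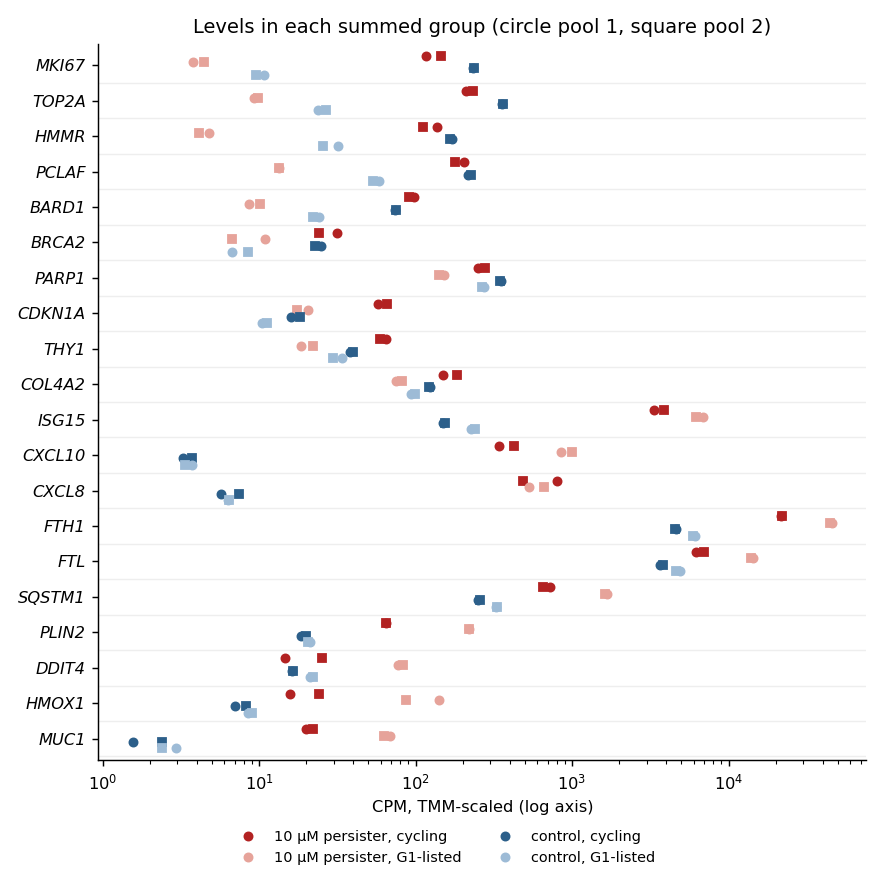
CPM on a log axis for 20 genes in the sums of 10 µM persister and control cells, with circles for pool 1 and squares for pool 2, and cycling beside G1-listed cells. In 10 µM persister cells MKI67, TOP2A, HMMR, PCLAF, BARD1, CDKN1A and THY1 lie higher in both cycling sums, FTH1, FTL, SQSTM1, PLIN2, DDIT4, HMOX1 and MUC1 lie lower, and CXCL8 overlaps.

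In the list of homologous recombination and Fanconi anemia genes 19 of 31 rose in the cycling state, 12 did not pass and none fell, with a median log2 difference of 1.40, and the counts were the same under library totals. BARD1, the partner of BRCA1, had 97.4 and 90.8 CPM in cycling cells, against 8.56 and 10.2 CPM in G1-listed cells, and rose by a log2 of 3.32 (SE 0.18, adjusted p = 2.70e-23). BRCA1 had 60.7 and 54.5 CPM in cycling cells, against 14.04 and 11.8 CPM in G1-listed cells. FANCI, which is monoubiquitinated with FANCD2 at crosslinks, had 56.5 and 44.4 CPM in cycling cells, against 7.53 and 4.78 CPM in G1-listed cells. BRCA2, the mutated gene of the line, had 31.4 and 24.2 CPM in cycling cells, against 10.96 and 6.69 CPM in G1-listed cells, and rose by a log2 of 1.66 (SE 0.28, adjusted p = 4.23e-06). None of these 4 genes overlapped between the states. Many genes of this list are E2F targets and are cell cycle regulated in other cells, and whether the G1 table used any of them is not given in the sources used here. Between the states of control cells 22 of the 31 genes were higher and none lower (14.1% of all genes higher). Between those of 320 µM persister cells 22 were higher and 2 lower (18.2% of all genes higher).

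PARP1, the main target of olaparib, was among the 5 of 19 PARP and single-strand break repair genes that rose, while 14 did not pass, none fell and the list's median log2 difference was 0.02. PARP1 had 252 and 277 CPM in cycling cells, against 151 and 141 CPM in G1-listed cells, 1.81-fold higher (log2 0.86, SE 0.08, adjusted p = 3.86e-13). PARP2, the smaller enzyme with the same catalytic domain, had 27.2 and 29.2 CPM in cycling cells, against 18.2 and 17.5 CPM in G1-listed cells, with an adjusted p of 0.0404 that passed 0.05 in the fit described but not without any 1 of the 4 sums. FEN1, the flap endonuclease, had 136 and 128 CPM in cycling cells, against 35.3 and 32.5 CPM in G1-listed cells. CHD1L, a remodeller recruited by poly-ADP-ribose, rose by a log2 of 1.05. Of 27 replication stress checkpoint genes 11 rose and 2 fell, with a median of 0.56. CHEK1, the kinase of that checkpoint, had 62.8 and 55.5 CPM in cycling cells, against 14.04 and 8.603 CPM in G1-listed cells, and PKMYT1, which phosphorylates CDK1 to hold it inactive, had 32.5 and 36.3 CPM in cycling cells, against 2.397 and 3.82 CPM in G1-listed cells.

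CDKN1A, the p53 target that encodes the CDK inhibitor p21, was higher in the cycling cells. It had 57.6 and 65.5 CPM in cycling cells, against 20.6 and 17.5 CPM in G1-listed cells, 3.24-fold higher (log2 1.697, SE 0.19, adjusted p = 6.23e-11). A CDKN1A UMI was found in 29.7% and 38.1% of cycling cells, against 15.49% and 20% of G1-listed cells at nearly the same median depth. In control cells the shares were 10.8% and 12.8% of cycling cells and 6.69% and 6.29% of G1-listed cells. The sums rest on few reads, with 55 and 65 UMIs in cycling cells and 60 and 55 in G1-listed cells, and thinned to 3000 UMIs per cell the adjusted p was 0.05203. Of the p53 target list 3 of 25 genes were higher and 1 lower, with a median log2 difference of -0.04. CCNG1, a cyclin G gene, had 86.9 and 103 CPM in cycling cells, against 58.2 and 49.4 CPM in G1-listed cells. PMAIP1, the pro-apoptotic NOXA protein, had 87.9 and 168 CPM in cycling cells, against 68.2 and 57.4 CPM in G1-listed cells, a difference lost without cycling replicate 2 of the 10 µM persister cells, and its 2 cycling sums were far apart. The list of D and E cyclins and CDK inhibitors had 6 of 19 genes higher and 2 lower, with CDK2 higher by a log2 of 2.09.

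The largest rises outside the cell cycle lists included further genes known from proliferating cells, for which the same limit holds. PCLAF, a PCNA-associated factor, had 204 and 178 CPM in cycling cells, against 13.4 and 13.4 CPM in G1-listed cells, 14.3-fold higher. DEPDC1 had 70.1 and 59.5 CPM in cycling cells, against 4.45 and 5.098 CPM in G1-listed cells, and CDKN3, a phosphatase acting on CDK1 and CDK2, had 97.4 and 140.2 CPM in cycling cells, against 9.59 and 14.3 CPM in G1-listed cells. PHF19, a Polycomb-associated protein, had 81.7 and 113 CPM in cycling cells, against 10.96 and 9.56 CPM in G1-listed cells. The rest of the 10 largest were BARD1, FANCI and CHEK1 described above, the kinetochore gene ZWINT (log2 2.68), the actin regulator DIAPH3 (2.54) and FBXO5, an inhibitor of the anaphase-promoting complex (2.41). All of these separated the 4 sums by state, as the rule that named them required.

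Transcripts of ferritin, which stores iron, were lower in cycling cells. FTH1, the ferritin heavy chain, had 21591 and 22037 CPM in cycling cells, against 45525 and 44744 CPM in G1-listed cells, 0.483 times the G1-listed level (log2 -1.05, SE 0.04, adjusted p = 2.52e-31). FTL, the light chain, had 6224 and 6990.0 CPM in cycling cells, against 14229 and 13974 CPM in G1-listed cells, a log2 of -1.09. Both cycling sums were below both G1-listed sums for both chains, although FTH1 has processed pseudogenes that can share its reads. Of 22 NRF2 targets and ferritin genes 12 fell and none rose, with a median log2 difference of -0.47 and 9 falls under library totals. The 25 listed genes took 3.86% and 3.93% of UMIs in cycling cells, against 7.03% and 6.96% in G1-listed cells. In control cells the shares were 1.23% and 1.25% in cycling cells, against 1.51% and 1.47% in G1-listed cells.

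HMOX1, the heme oxygenase that frees iron from heme, had 15.7 and 24.2 CPM in cycling cells, against 142 and 86.99 CPM in G1-listed cells, 0.176 times the G1-listed level (log2 -2.51, SE 0.34, adjusted p = 2.05e-04). It was found in 13.5% and 31.7% of cycling cells, against 40.7% and 35.5% of G1-listed cells and 6.01 to 7.89% of control cells in the 4 control sums. With phase calls in place of the table its log2 difference was -1.46. TXN, thioredoxin, had 885 and 733 CPM in cycling cells, against 1070.0 and 1156 CPM in G1-listed cells, and AKR1B1, an aldose reductase, had 781 and 782 CPM in cycling cells, against 1117 and 1058 CPM in G1-listed cells. Both lay below every G1-listed sum by small margins.

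SQSTM1, the p62 autophagy receptor that NRF2 also regulates, had 727 and 649 CPM in cycling cells, against 1682 and 1616 CPM in G1-listed cells, a log2 of -1.26 (SE 0.06, adjusted p = 3.01e-25). Of the autophagy and lysosome list 10 of 35 genes fell and 1 rose, with a median of -0.28. CTSD, a lysosomal protease, had 184 and 141 CPM in cycling cells, against 299.7 and 267 CPM in G1-listed cells, and NEU1, a lysosomal sialidase, fell by 0.82 on the log2 scale. PLIN2, which coats lipid droplets, had 64.9 and 64.5 CPM in cycling cells, against 218 and 220.2 CPM in G1-listed cells, 0.295 times the G1-listed level. A PLIN2 UMI was found in 36.5% and 38.1% of cycling cells, against 62.8% and 64.0% of G1-listed cells and 12.7 to 20.4% of control cells. For PLIN2 the cycling sums and shares of cells lay below the G1-listed ones, as a description. Between the states of control cells 16 of the 35 autophagy and lysosome genes were lower and 2 higher (10.4% of all genes lower). Between those of 320 µM persister cells 12 were lower and 4 higher (16.8% of all genes lower).

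**Figure D3:**
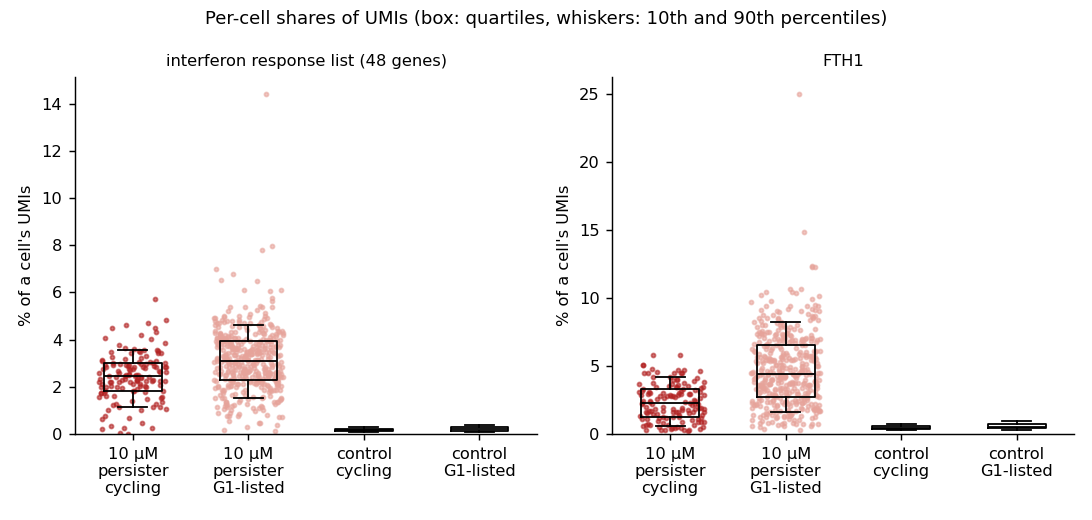
Share of each cell's UMIs taken by the 48-gene interferon response list and by FTH1, in percent, for cycling and G1-listed cells of 10 µM persister and control cells. Medians of 10 µM persister cells are 2.45% in cycling and 3.09% in G1-listed cells for the interferon list and 2.25% and 4.40% for FTH1, and the distributions of the states overlap broadly.

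Per cell, the FTH1 share of UMIs had a median of 2.25% in cycling cells (10th to 90th percentile 0.547 to 4.28), against 4.40% in G1-listed cells (1.57 to 8.22). The medians in control cells were 0.426% in cycling and 0.518% in G1-listed cells. Cells below 1% FTH1 made up 26 of 137 cycling cells, against 18 of 426 G1-listed cells. Among cells of at least 3000 UMIs the medians were 2.61% in cycling cells and 4.48% in G1-listed cells, so the order of the medians was the same without the shallow cells. Every one of the 563 cells had an FTH1 UMI, and the distributions of the states overlapped.

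Interferon-stimulated genes were high in both states and lower in the cycling one. All 48 tested genes of the list were higher than in control cells in each state (15.7% of all genes were higher in cycling and 25.5% in G1-listed cells), with median log2 differences of 3.79 in cycling and 4.03 in G1-listed cells. Between the states 25 of 48 fell in cycling cells and none rose, with a median of -0.31, and with library totals alone 13 fell, 3 rose and the median was -0.18. With pool as a block 26 fell and 2 rose. ISG15, a ubiquitin-like protein induced by interferon, had 3356 and 3849.9 CPM in cycling cells, against 6869.9 and 6205 CPM in G1-listed cells, a log2 of -0.86 (SE 0.05, adjusted p = 7.76e-20). In control cells ISG15 had 151 and 154 CPM in cycling cells, against 227 and 241 CPM in G1-listed cells. IFIT3, an RNA-binding partner of IFIT1, had 446 and 503 CPM in cycling cells, against 799 and 766 CPM in G1-listed cells. IFITM2 and IFITM3, membrane proteins that block viral entry and share sequence, had 263 and 241 CPM in cycling cells, against 470.3 and 485 CPM in G1-listed cells for IFITM2, and a log2 difference of -0.64 for IFITM3. Each of these genes was lower in both cycling sums than in either G1-listed sum.

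Per cell the interferon list took a median of 2.45% of UMIs in cycling cells (10th to 90th percentile 1.15 to 3.58), against 3.09% in G1-listed cells (1.49 to 4.64) and 0.160% and 0.200% in cycling and G1-listed control cells. A few cells had a control-like level, at or below the 95th percentile of control cells of their pool (0.418% and 0.395%). These were 6 of 137 cycling cells, against 4 of 426 G1-listed cells, and without them 2387 genes passed the test and 25 of 48 interferon genes fell, while 2 rose. The cells with under 3000 UMIs had a median interferon share of 1.94% in the cycling state.

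The promoters of ISG15 and CXCL10 are printed since they carry the interferon-stimulated response element searched, TTTC, any 2 bases and TTTC on either strand, in capitals. It stood in 24 of 38 matched promoters of the interferon list (63.2%), beside 3.65% of all 27305. ISG15 lies on the plus strand at chr1:1013247-1013546, with overlapping matches that begin 113 and 107 bases before the start. CXCL10 lies on the minus strand at chr4:76023448-76023747, with a match 221 bases before the start.
ISG15: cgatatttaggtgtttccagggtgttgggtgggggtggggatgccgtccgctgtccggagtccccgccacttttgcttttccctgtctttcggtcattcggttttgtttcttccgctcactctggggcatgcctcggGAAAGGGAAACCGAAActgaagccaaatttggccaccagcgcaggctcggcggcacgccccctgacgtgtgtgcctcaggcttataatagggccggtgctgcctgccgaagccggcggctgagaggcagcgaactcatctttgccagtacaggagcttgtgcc
CXCL10: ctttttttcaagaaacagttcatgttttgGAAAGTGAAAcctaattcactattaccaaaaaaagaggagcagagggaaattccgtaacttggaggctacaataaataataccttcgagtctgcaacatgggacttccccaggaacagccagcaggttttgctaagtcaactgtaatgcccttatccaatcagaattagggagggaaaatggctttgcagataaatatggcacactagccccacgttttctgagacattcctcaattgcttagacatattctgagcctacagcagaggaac

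CXCL10, a chemokine induced by interferon and NF-kB, had 341 and 423 CPM in cycling cells, against 844 and 995 CPM in G1-listed cells, a log2 of -1.27 (SE 0.09, adjusted p = 8.37e-14). In control cells it had 3.28 and 3.71 CPM in cycling cells, against 3.73 and 3.34 CPM in G1-listed cells. Few cells carry this transcript's reads, since 1 cell held 32.8% of the UMIs of the first cycling sum and 1 held 28.9% of the second, against 7.31% and 7.94% in G1-listed cells. The share of cells with a CXCL10 UMI overlapped between states, at 47.3% and 26.98% of cycling cells, against 37.6% and 47.5% of G1-listed cells, and was 2.81 to 4.52% in the control sums. CXCL8, the neutrophil chemokine IL-8, did not pass the test, with 799 and 489 CPM in cycling cells, against 534 and 657 CPM in G1-listed cells and an adjusted p of 0.768. Its sums overlapped, and its UMIs were found in 74.3% and 71.4% of cycling cells, against 67.3% and 68.0% of G1-listed cells and 4.17 to 8.22% of control cells.

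Of 26 NF-kB and secreted inflammatory genes 3 rose and 7 fell between the states, with a median of -0.11 that became 0.03 under library totals, although 25 and 26 of them were higher than in control cells in the cycling and G1-listed states. NFKBIA, the inhibitor that NF-kB itself induces, had 666 and 658 CPM in cycling cells, against 1058 and 958 CPM in G1-listed cells. IL32, a secreted inflammatory protein, had 279.5 and 300.5 CPM in cycling cells, against 495 and 606 CPM in G1-listed cells, and SOD2, the mitochondrial superoxide dismutase, had 302 and 286 CPM in cycling cells, against 509 and 445 CPM in G1-listed cells. All 3 fell and did not overlap. In the acute phase list 5 of 14 genes fell and none rose, with a median of -0.73, and with pool as a block 9 fell and 1 rose. SAA1, a serum amyloid, had 97.4 and 124 CPM in cycling cells, against 190.4 and 183 CPM in G1-listed cells, but 1 cell held 61.0% of its UMIs in the second cycling sum and reads can be shared with SAA2. C1S, a complement protease, had a log2 difference of -0.83, which did not pass without cycling replicate 2 of the 10 µM persister cells (adjusted p = 0.197).

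Of MHC class I presentation genes, 7 of 20 fell and 1 rose, with a median of -0.24, and with library totals alone 1 fell and 1 rose. HLA-B, a class I heavy chain whose reads the other HLA genes can share, had 2105 and 1895 CPM in cycling cells, against 2432 and 2396 CPM in G1-listed cells, HLA-E differed by a log2 of -0.36 and B2M, the light chain, by -0.27. HLA-B and B2M did not pass under library totals alone. CALR, a chaperone of the loading complex, was the gene that rose, with 794 and 721 CPM in cycling cells, against 579 and 549 CPM in G1-listed cells. Between the states of control cells 8 of the 20 genes were lower and 1 higher (10.4% of all genes lower). Between those of 320 µM persister cells 3 were lower and 4 higher (16.8% of all genes lower).

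Stress and metabolic genes moved apart. Of 31 genes of the integrated stress and unfolded protein response 11 fell and 6 rose, with a median of -0.35. DDIT4, which restrains mTORC1, had 14.7 and 25.2 CPM in cycling cells, against 77.7 and 83.2 CPM in G1-listed cells, 0.249 times the G1-listed level, and its UMIs were found in 9.46% and 30.2% of cycling cells, against 41.2% and 43.0% of G1-listed cells. NUPR1, a stress-induced nuclear protein, had 38.7 and 44.4 CPM in cycling cells, against 137 and 142 CPM in G1-listed cells, and HERPUD1, of the degradation machinery at the endoplasmic reticulum, had 116 and 99.8 CPM in cycling cells, against 229 and 223 CPM in G1-listed cells. PDIA4, a disulfide isomerase of the same compartment, rose, with 119 and 151 CPM in cycling cells, against 67.8 and 78.1 CPM in G1-listed cells. Of 18 heat shock genes 4 rose, such as HSP90AA1 (1143 and 1128 CPM in cycling cells, against 789 and 835 CPM in G1-listed cells) and the mitochondrial chaperonin HSPD1 (log2 0.54), and 3 fell, such as the small heat shock genes HSPB1 (log2 -0.42) and CRYAB (355 and 254 CPM in cycling cells, against 642 and 837 CPM in G1-listed cells). CRYAB differed between pools as well. Between the states of control cells 6 of the 31 integrated stress and unfolded protein response genes were lower and 4 higher (10.4% of all genes lower). Between those of 320 µM persister cells 17 were lower and 5 higher (16.8% of all genes lower).

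In glycolysis 9 of 20 genes fell and 1 rose, with a median of -0.33. GAPDH, a core enzyme of the pathway, had 2676 and 2551 CPM in cycling cells, against 4223 and 3545 CPM in G1-listed cells. PGK1, which makes ATP in the pathway, had 340.3 and 278 CPM in cycling cells, against 509.6 and 481 CPM in G1-listed cells, and ENO1, enolase, had 1494 and 1294 CPM in cycling cells, against 2219 and 1934 CPM in G1-listed cells. LDHB, a lactate dehydrogenase subunit, was the gene that rose, with 437 and 376 CPM in cycling cells, against 253 and 252 CPM in G1-listed cells. These 4 genes separated the sums by state. Nuclear respiratory chain genes (21 of 54 lower, 2 higher, median -0.18) and large ribosomal protein genes (13 of 44 lower, none higher, median -0.09) turned with the scaling, to 4 lower and 9 higher and to 4 lower and 6 higher under library totals. NDUFS8 of complex I differed by a log2 of -0.56 and RPL30 by -0.27. Of 13 mitochondrially encoded genes 5 were lower and 2 higher, MT-ND2 by -0.35, and under library totals 2 were lower and 3 higher. With TMM factors, 36 of the 44 large ribosomal protein genes were lower and none higher between the states of control cells. At 320 µM all 44 were lower. Of the 54 nuclear respiratory chain genes 9 were lower and 1 higher in control cells, and 40 lower and none higher at 320 µM. Of all genes 10.4% were lower in control cells and 16.8% at 320 µM.

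Few genes passed in cholesterol synthesis (1 higher and 1 lower of 22) and fatty acid synthesis (1 higher of 12). Apoptosis regulators (3 higher and 4 lower of 23) and MYC targets and ribosome biogenesis (5 higher and 3 lower of 28) had calls in both directions. BIRC3, an inhibitor of apoptosis that NF-kB induces, was among the apoptosis genes that fell (log2 -0.79), and DESeq2 did not call it (adjusted p = 0.0679). Immediate early genes fell in 7 of 19 cases and rose in none, with a median of -0.36. JUNB had 114 and 133 CPM in cycling cells, against 273 and 225 CPM in G1-listed cells, and JUN differed by a log2 of -0.46, both subunits of the AP-1 factor. Between the states of control cells 14 of the 19 immediate early genes were lower and none higher (10.4% of all genes lower). Between those of 320 µM persister cells 13 were lower and 1 higher (16.8% of all genes lower).

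**Figure D4:**
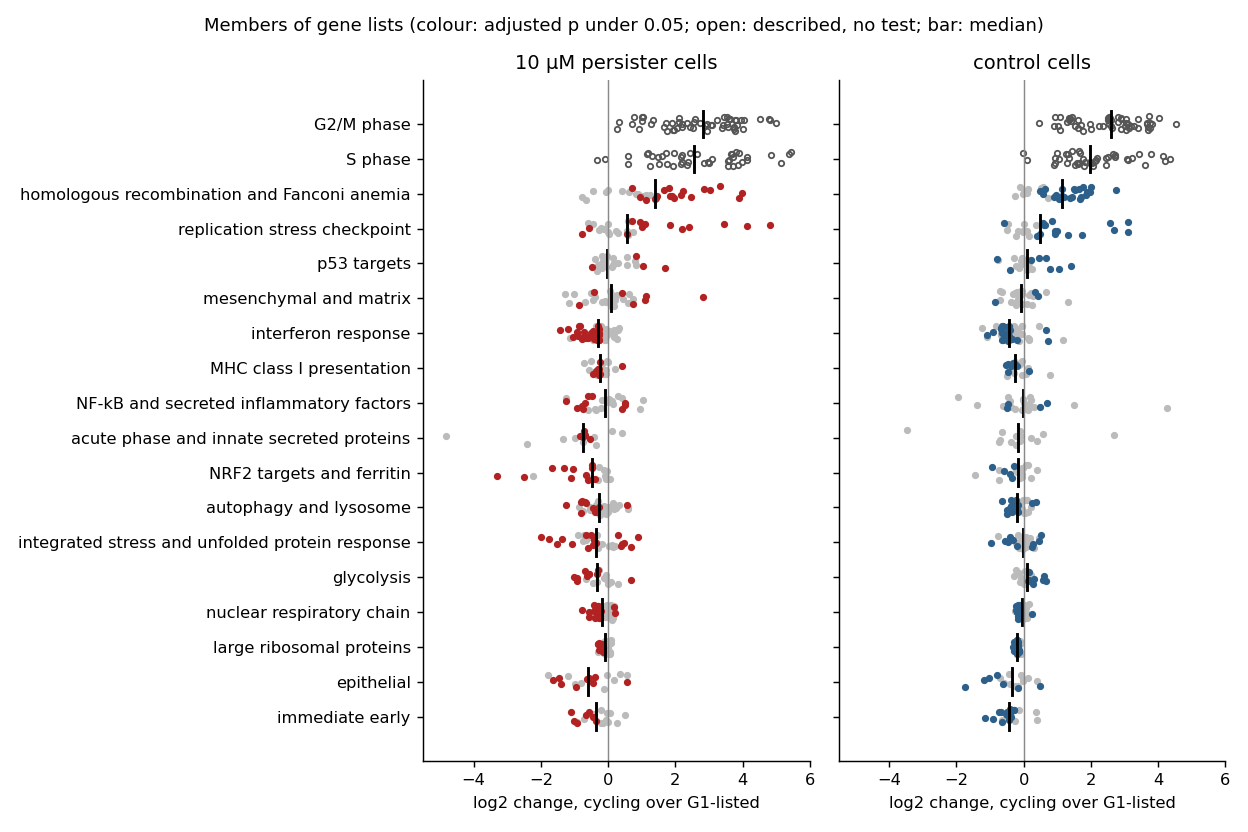
Log2 differences of cycling against G1-listed cells for the members of gene lists, at left in 10 µM persister and at right in control cells. Each symbol is a gene, colour marks an adjusted p under 0.05, bars are list medians and open symbols mark the S and G2/M lists, shown without a test, and the ferritin and glycolysis lists sit lower in 10 µM persister than in control cells.

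Of 18 epithelial genes 8 fell and 1 rose in the cycling cells, with a median of -0.59. KRT8 and KRT18, the keratins of simple epithelia, were abundant in all 4 sums. In CPM of library totals KRT8 had 815 and 726 in cycling cells, against 1063 and 856 in G1-listed cells, and KRT18 had 1776 and 1634 in cycling cells, against 2668 and 2105 in G1-listed cells. EPCAM and CDH1, which define most epithelia, were close to absent, with 0 and 7 UMIs of EPCAM in cycling cells, against 18 and 20 in G1-listed cells, and 3 and 1 UMIs of CDH1 in cycling cells, against 1 and 10 in G1-listed cells. KRT7, another simple keratin and the gene that rose, had 107 and 123 CPM of library totals in cycling cells, against 59.6 and 82.2 in G1-listed cells. CD24, a surface glycoprotein, had 71.4 and 58.5 CPM of library totals in cycling cells, against 45.6 and 35.4 in G1-listed cells, and did not pass (adjusted p = 0.0600). KRT7 and CD24 were singled out after their values were seen, and both cycling sums lay above both G1-listed sums. MUC1, a transmembrane mucin, had 19.9 and 22.2 CPM in cycling cells, against 68.5 and 62.8 CPM in G1-listed cells, and CLDN3, a tight junction claudin, had 47.1 and 36.3 CPM in cycling cells, against 121 and 107 CPM in G1-listed cells. CLDN4, another claudin, and SPINT2, a protease inhibitor, fell by 0.94 and 0.56 on the log2 scale. Between the states of control cells 6 of the 18 epithelial genes were lower and 1 higher (10.4% of all genes lower). Between those of 320 µM persister cells 10 were lower and none higher (16.8% of all genes lower).

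Of 30 mesenchymal and matrix genes 5 rose and 2 fell, with a median of 0.09. COL4A1 had 117 and 101 CPM in cycling cells, against 37.3 and 61.8 CPM in G1-listed cells, and COL4A2, its partner in basement membrane collagen, had 149.7 and 185 CPM in cycling cells, against 75.01 and 81.6 CPM in G1-listed cells. TPM2, a tropomyosin, rose by 0.42 on the log2 scale, and FN1, fibronectin, fell, with 602 and 619 CPM in cycling cells, against 753 and 882 CPM in G1-listed cells. THY1, a surface glycoprotein of fibroblasts and other cells, had 64.9 and 59.5 CPM in cycling cells, against 18.5 and 21.99 CPM in G1-listed cells, a log2 of 1.61 (SE 0.18, adjusted p = 8.78e-11). It was found in 33.8% and 39.7% of cycling cells, against 15.0% and 19.5% of G1-listed cells, and in 23.8% and 27.5% of control cycling cells and 17.7% and 17.3% of control G1-listed cells. LYPD1, of the serous lineage list, had 67.004 and 62.5 CPM in cycling cells, against 21.9 and 24.9 CPM in G1-listed cells, while MSLN, the mesothelin of serous tumours and mesothelium, had 72.2 and 69.6 CPM in cycling cells, against 146 and 157 CPM in G1-listed cells. The serous lineage list had 2 of 11 genes higher and 1 lower, against 5 higher and 1 lower under library totals. With pool as a block 3 were higher and 1 lower. SOX17, named after its values were seen, did not pass (log2 0.72, adjusted p = 0.163) but passed with pool as a block (adjusted p = 2.56e-06).

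Leukocyte markers were few and summed to 6 and 19 UMIs in cycling cells, against 86 and 72 UMIs in G1-listed cells, nearly all of CD14 and CD68, and CD3E, MS4A1, LYZ, ITGAM and TYROBP were at 0 in the 4 sums. Of the 2 leukocyte markers deep enough to test, CD14 had an adjusted p of 0.0630 and CD68 of 0.119, and with pool as a block CD14 passed as lower (adjusted p = 0.0475). Fibroblast markers summed to 71 and 68 UMIs in cycling cells, against 58 and 76 in G1-listed cells, mostly THY1, with PDGFRB, LUM, COL1A2 and POSTN at 0, and 2 of 6 tested rose. Mesothelial markers were more abundant, with 127 and 125 UMIs in cycling cells, against 559 and 614 in G1-listed cells, mostly MSLN and UPK3B, and CALB2 was at 0. Of the 5 tested, LRRN4 and PDPN rose, MSLN fell, and UPK3B and WT1 did not pass. The part of these cell markers in the results was not tested.

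Among the largest falls not yet named, PPP1R16A, a regulatory subunit of a phosphatase, had 51.3 and 55.5 CPM in cycling cells, against 204 and 181 CPM in G1-listed cells. IGFBP3, a secreted binder of insulin-like growth factors, had 47.1 and 26.2 CPM in cycling cells, against 125 and 109 CPM in G1-listed cells. BTN3A1, a butyrophilin, had 20.9 and 15.1 CPM in cycling cells, against 58.9 and 54.2 CPM in G1-listed cells. All 3 fell and separated by state, as the rule that named them required.

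The difference between states was tested against that in control cells, where 3165 of 12892 genes differed between states (24.6%), 14.1% of all genes higher and 10.4% lower in cycling cells. This interaction passed for 887 genes (6.88%), 341 higher (2.65%) and 546 lower (4.24%), and under library totals for 583 higher and 282 lower. FTH1 differed by a log2 of -1.05 between states in 10 µM persister cells and of -0.39 in control cells, an interaction of -0.66 (adjusted p = 5.96e-14). FTL had an interaction of -0.74 and SQSTM1 of -0.901, and 8 of 22 NRF2 and ferritin genes had a lower difference than in control cells and none a higher one. Under library totals the list had 7 lower and none higher. DDIT4 (-1.61), PLIN2 (-1.65) and HMOX1 (-2.31) also had lower differences, HMOX1 with an adjusted p of 0.0119 that was lost when either cycling sum was left out. The HMOX1 interaction was -1.18 with phase calls in place of the table (adjusted p = 0.215) and was not called on the sums compared alone (adjusted p = 0.105). In 320 µM persister cells the NRF2 and ferritin list was also lower in the cycling state, in 15 of 22 genes.

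**Figure D5:**
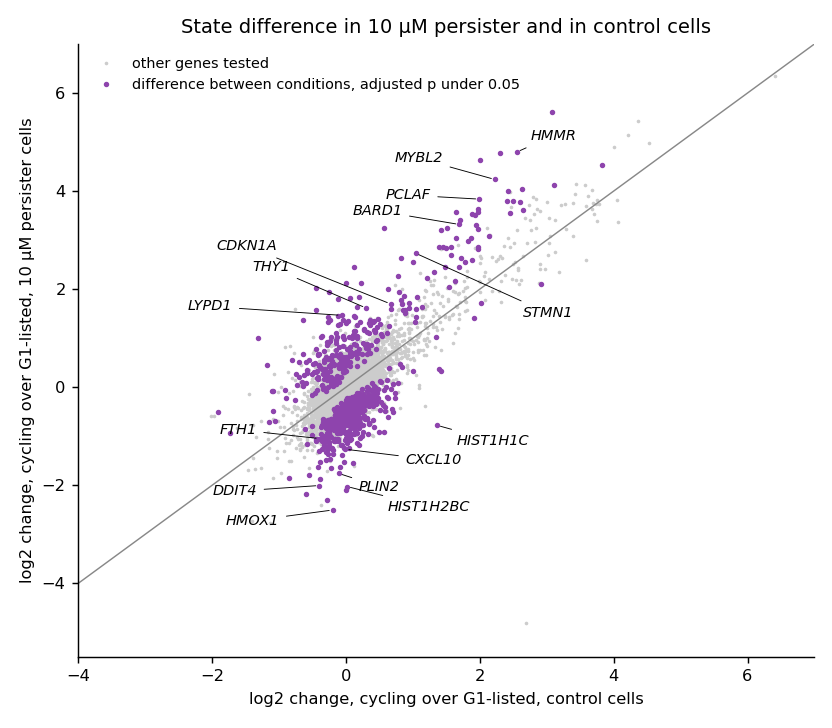
Log2 difference of cycling against G1-listed cells in 10 µM persister cells against the same in control cells, for 6361 genes of at least 20 CPM in 1 of the 4 groups, of which 791 passed the interaction test and are coloured. HMMR, PCLAF, CDKN1A and THY1 lie above the diagonal and FTH1, PLIN2, DDIT4 and HMOX1 below it.

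Glycolysis and several inflammatory genes differed in direction or size between the conditions. In control cells 8 of 20 glycolysis genes were higher in cycling cells and none lower, and 10 had a lower difference in 10 µM persister cells and 1 a higher one, against 6 lower and 1 higher under library totals. ENO1 had an interaction of -0.73, PGK1 of -0.68, GAPDH of -0.49 and LDHB of 0.55. IL32 was lower in cycling 10 µM persister cells and higher in cycling control cells (log2 0.496), an interaction of -1.42 (adjusted p = 7.04e-09). NFKBIA had an interaction of -0.57 and MSLN of -0.79. CXCL10 had -1.26 (adjusted p = 0.00226), a call lost without the cells of most UMIs. Of the 48 interferon genes 5 had a higher and 4 a lower difference than in control cells, where 20 of the 48 were lower in cycling cells and 2 higher. ISG15 had -0.24 with an adjusted p of 0.0485, lost under library totals, RLE factors, DESeq2 and several left-out sums.

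Genes with a wider upward difference in 10 µM persister cells included CDKN1A, with an interaction of 1.03 (adjusted p = 0.00163), PARP1 with 0.49, and BARD1 with 1.63. THY1 had 1.31, COL4A2 0.75 and LYPD1 1.53, the last with a log2 of -0.07 between states in control cells. At 320 µM the same differences between states were 2.17 for CDKN1A, 0.68 for PARP1, 3.005 for BARD1, 1.53 for THY1, 1.33 for COL4A2 and 1.601 for LYPD1. The interactions of these 6 genes with 320 µM persister cells did not pass, such as CDKN1A with -0.47 (SE 0.22, adjusted p = 0.203) and PARP1 with 0.18 (SE 0.10, adjusted p = 0.350). The 5 largest among abundant genes were HMMR (2.24), MYBL2 (2.01), DSCC1 (1.92), PCLAF (1.84) and PHF19 (1.75), followed in the cycle lists by STMN1 (1.69), CENPF (1.41) and TOP2A (0.702), and those in the cycle lists are values without a test. In HMMR the cycling levels were 137 and 112 CPM in 10 µM persister cells, against 171 and 166 CPM in control cells, while the G1-listed levels were 4.79 and 4.14 CPM in 10 µM persister cells, against 31.9 and 25.8 CPM in control cells. G1-listed control cells held more S or G2/M calls, 7.42% and 6.39% of cells, against 0.746% and 1.74% in G1-listed 10 µM persister cells, and the part of this in the interactions was not tested beyond a repeat with phase calls. In that repeat HMMR had 1.696 and PCLAF 1.796, and TOP2A had 0.54. HIST1H1C was higher in cycling than in G1-listed control cells and lower in cycling 10 µM persister cells, with an interaction of -2.14, and HIST1H2BC had -2.04. These genes were picked partly by the size of their interactions. In cells thinned to 3000 UMIs the interactions of 5 of these genes outside the cycle lists no longer passed. Of these THY1 had 1.39 and COL4A2 0.82, as large as without thinning, while BARD1 had 1.26, CDKN1A 0.40 and PARP1 0.29, all smaller.

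Set against control cells of the same state, 4517 genes differed in cycling cells (35%), 2022 higher (15.7%) and 2495 lower (19.4%), and 6574 in G1-listed cells (51%), 3293 higher (25.5%) and 3281 lower (25.4%). Under library totals the cycling count was 2833 higher and 1459 lower. These comparisons share the 10 µM persister sums with those above, and the G1-listed sums are deeper. FTH1 in cycling cells was at 21591 and 22037 CPM in 10 µM persister cells, against 4609.7 and 4579 CPM in control cells. CDKN1A in cycling cells was at 57.6 and 65.5 CPM in 10 µM persister cells, against 16.1 and 18.3 CPM in control cells. MUC1 was at 19.9 and 22.2 CPM in 10 µM persister cells, against 1.57 and 2.39 CPM in control cells. In each gene both 10 µM persister sums lay above both control sums. MKI67 in cycling cells was at 117 and 145 CPM in 10 µM persister cells, against 234 and 237 CPM in control cells. HIST1H4C was at 285 and 265 CPM in 10 µM persister cells, against 1107 and 1193 CPM in control cells. PCLAF was at 204 and 178 CPM in 10 µM persister cells, against 218 and 226 CPM in control cells. In these 3 genes both 10 µM persister sums lay below both control sums. Of the large ribosomal protein genes, 44 of 44 were lower than in control cycling cells and 44 of 44 lower than in control G1-listed cells, and under library totals 41 and 44.

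Against 320 µM persister cells, the difference between states differed for 1010 genes (7.83%), 486 higher (3.77%) and 524 lower (4.06%), and under library totals for 352 higher and 772 lower. FTH1 differed by a log2 of -1.05 between states at 10 µM and of -1.497 at 320 µM, an interaction of 0.45 (adjusted p = 1.11e-08). Of the 22 NRF2 and ferritin genes 15 were lower in the cycling state and none higher at 320 µM, against 12 and none at 10 µM. The list medians were -0.83 and -0.47. In this list 6 genes had a higher difference at 10 µM and none a lower one, and under library totals 3 and 1. BRCA2 had a smaller rise at 10 µM, with a log2 of 1.66 against 3.21 at 320 µM (interaction -1.55, adjusted p = 0.00348). CHEK1 and PCLAF also had lower differences at 10 µM (-1.44 and -1.08). As values without a test, the cycle list genes MYBL2 and H2AFZ had -0.999 and 0.95. ISG15 (-0.66), IFIT3 (-0.996), DDIT4 (-0.82), PLIN2 (-1.13) and CLDN3 (-1.19) had lower differences at 10 µM, and CLDN4 (1.12) and LDHB (0.59) higher ones. ISG15 itself was at 3356 and 3849.9 CPM in 10 µM persister cells, against 143 and 130.1 CPM in 320 µM persister cells, in cycling cells. Of the 44 large ribosomal protein genes 39 had a higher difference at 10 µM than at 320 µM and none a lower one, and 29 and none under library totals.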

How the data were processed

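The deposited matrix holds UMI counts of 19893 genes in 13800 cells, whole numbers that the authors had assigned to cells with a condition and pool in each cell's name, and a second deposited table lists 7762 cells under a G1 name with UMIs per cell as counts. The 10 GEO samples are 8 gene expression and 2 hashtag libraries. Per the submitters' processing notes Cell Ranger 3.1, Seurat and hg38/GRCh38 are listed, their roles unstated. Settings for counting, demultiplexing and filters were not given in the sources used here. Matrix sums exceed the listed UMIs slightly (median ratio 1.00, highest 1.05).

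No cell was removed and no doublet caller was run, and cells above the 95th percentile of UMIs were left out as an alternative. Of the barcodes, 13 occur in both pools, and 1 barcode of a 10 µM persister cell occurs in the other pool. Counts were summed into 20 sums of condition, state and pool. Genes kept by filterByExpr (12892) were fitted with edgeR 4.0.16 in R 4.3.3 (TMM factors, robust quasi-likelihood, 1 mean per condition and state, 10 residual degrees of freedom, two-sided, Benjamini-Hochberg adjustment over all genes, threshold 0.05). Log2 differences are edgeR's, and the spread is shared over all 20 sums (biological coefficient of variation 4.54%). The labels put same-numbered groups into the same pool, so pool pairs them: pool differences of the cycling and G1-listed 10 µM persister sums correlated at 0.192 over 2744 genes of at least 50 CPM (0.146 to 0.509 over pairs of groups). Phase calls used scanpy 1.11.5 on cells thinned to 3000 UMIs and scaled to 10000, and figures matplotlib 3.10.9.

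The members and the 33 gene lists were chosen with earlier results of these data known. Genes named are 14 fixed ones, the 10 largest rises and falls outside the cell cycle lists (at least 50 CPM, sums separated), the 5 largest interactions each way, and up to 4 per list by p (at least 20 CPM, 6 for cell cycle lists), from which some were left out, with ribosomal, mitochondrial and clone names kept from the largest changes. Alternatives were DESeq2 1.42.0, RLE factors, library totals, no filter, thinning, phase calls, pool as a block and leaving out each sum, and, chosen after seeing the data, leaving out shallow cells and cells of control-like interferon level. Depth limits rare genes in the cycling sums.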

Additional observations from a re-analysis of the deposited data

Results flagged for a closer look

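The values here are log2 interactions from edgeR, cycling minus G1-listed in 10 µM persister cells less the same in another condition, each with an adjusted p under 0.05 for the difference itself. Members of the cell cycle and histone lists are left out, being described without a test. A positive value means that the cycling state was higher, relative to G1-listed cells, by more in 10 µM persister cells.

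Against control cells, genes of proliferation and DNA repair had PCLAF 1.84, PHF19 1.75, BARD1 1.63 and PARP1 0.49, and CDKN1A had 1.03. The G1 table may have used genes of proliferation and repair, which limits their calls. G1-listed control cells held 7.42% S and 6.39% G2/M calls, against 0.746% and 1.74% in G1-listed 10 µM persister cells. The part of this in the interactions was not tested beyond a repeat with phase calls. Iron, redox, lipid and stress genes had HMOX1 -2.31 (-1.18 with phase calls and then not passing), PLIN2 -1.65, DDIT4 -1.61, SQSTM1 -0.90, FTL -0.74 and FTH1 -0.66. Inflammatory and interferon genes had IL32 -1.42, CXCL10 -1.26, NFKBIA -0.57 and ISG15 -0.24. The ISG15 call was lost under library totals, RLE factors, DESeq2, the sums compared alone and several left-out sums. That of CXCL10 was lost without the cells of most UMIs and in thinned cells. Glycolysis genes had ENO1 -0.73, PGK1 -0.68, GAPDH -0.49 and LDHB 0.55. Surface, matrix and lineage genes had LYPD1 1.53, THY1 1.31, COL4A2 0.75 and MSLN -0.79.

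Against 320 µM persister cells, BRCA2 had -1.55, CHEK1 -1.44 and PCLAF -1.08, and the G1 table may have used such genes as well. The interferon genes IFIT3 and ISG15 had -0.996 and -0.66, and CLDN3, PLIN2 and DDIT4 had -1.19, -1.13 and -0.82. FTH1 had 0.45, LDHB 0.59 and CLDN4 1.12.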

How the results depend on the processing

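With cells thinned to 3000 UMIs, which removes most UMIs, 706 genes passed between cycling and G1-listed 10 µM persister cells, of which 651 were among the 2340, and 186 passed the interaction with control cells, 204 that with 320 µM persister cells, 1727 the comparison with control cycling cells and 3730 that with control G1-listed cells. Fitted on the sums compared alone, 545 genes passed the interaction with control cells. Leaving out 1 sum at a time gave 1425 to 2191 genes between states, 413 to 880 for the interaction with control cells, 669 to 958 for that with 320 µM persister cells, 3075 to 4331 in cycling cells and 5450 to 5955 in G1-listed cells, and each lowest count of the first 3 ranges came without cycling replicate 2 of the 10 µM persister cells. DESeq2 called 2124 genes between states, RLE factors 2323, phase calls 2275, and leaving out cells of most UMIs 2272 or cells under 3000 UMIs 2338. The cycling share by phase calls was 20.9% among cells of at least 3000 UMIs, in place of 24.3% among all cells by the table. By the table, those deeper cells were 109 cycling and 402 G1-listed cells. The shares thus differ in the cells covered as well as in the calls.

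With pool as a replicate block 2393 genes passed between states, and 1008 and 1055 the interactions with control and 320 µM persister cells. The comparison in cycling cells then had 4616 genes and that in G1-listed cells 6799. Among the calls given for single genes the block changed those of CD14 (adjusted p = 0.0475) and SOX17 (adjusted p = 2.56e-06) between states.

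CXCL8, which did not pass, turned to a log2 difference of -0.29 without cycling replicate 1 and -0.035 without G1-listed replicate 1 of the 10 µM persister cells, and reached 0.42 without cycling replicate 2, where it passed. BIRC3 did not pass without cycling replicate 1 or G1-listed replicate 2, PMAIP1 without cycling replicate 2 or G1-listed replicate 2, and B2M without cycling replicate 2. In thinned cells CDKN1A, PARP2, BRCA2, C1S, CALR, CCNG1, PMAIP1, CHD1L and CDK2 no longer passed between states, nor did the interactions of BARD1, CDKN1A, PARP1, CXCL10, THY1, LDHB, COL4A2 and MSLN with control cells. With phase calls in place of the table, PARP2 (log2 0.39, adjusted p = 0.328) and PMAIP1 (log2 0.39, adjusted p = 0.0908) did not pass between states. The cause was not tested. Cycling sums hold 22.7% of the UMIs of these cells, which limits rare transcripts.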
